A study of Mus musculus with 30 samples.

Results

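Fos, Fosb, Jun, Junb, Jund, Egr1, Atf3, Ier2, Nr4a1 and Btg2 were followed as a set of immediate early and injury response genes in motoneurons. The set held every probe set that the array annotation assigned to these symbols, which gave 15 probe sets of 10 genes among 12422 probe sets tested. No listed gene lacked a probe set. The samples came from 5 adult mice, each a sham-operated control, and in each mouse 3 kinds of spinal motoneuron were collected by laser capture. These were motoneurons of the intermediolateral column (IML), lateral motoneurons (LMN) and medial motoneurons (MMN). In each animal 400 captures were taken per cell type, the RNA was divided into 2 portions, and each portion was amplified and hybridised to its own Affymetrix array, which gave 30 arrays. IML holds the visceral motoneurons that drive autonomic ganglia, whereas LMN and MMN are the somatic motoneurons of limb and axial muscle.

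Sham surgery was common to every sample, and unoperated mice were not analysed here, so no value below measures an effect of the operation. The sources used here do not name the strain, the age beyond adult, the kind of operation or the time from surgery to collection. The labels name the animals by pair number, and the same 5 animals supplied all 3 pools. A capture can take in cells that touch a motoneuron, and the arrays measured the pooled RNA of the captures. Fewer cells of a type and less RNA per cell therefore cannot be told apart.

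Immediate early genes are switched on within minutes of a stimulus from transcription factors that the resting cell already holds, chiefly CREB and the serum response factor. Fos and Jun family proteins pair through leucine zippers to form the AP-1 factor, Egr1 is a zinc finger factor, and Nr4a1 is an orphan nuclear receptor. Jun and Atf3 are also induced in motoneurons and sensory neurons whose axons have been cut, where Atf3 is widely used as a marker of axon injury.

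The promoters of the members were searched for the sites of these factors. Of the 10 genes, 8 had a window of 300 bases in a RefSeq table of build GRCm38.p6, running from 250 bases before the annotated start to 50 after it, and Egr1 and Ier2 had none. The 5-letter core TGACG, searched on both strands, occurred in 6 of these 8 windows and in 20.8% of 32851 windows of the same length. The 8-letter cAMP response element TGACGTCA, which holds that core on each strand, occurred in 1 of 8 windows (Btg2) and in 1.79% of all. A variant element, TGACATCA, occurred in the Jun window and in 3.62% of all. The AP-1 site TGANTCA and the CArG box of the serum response factor were in 0 of the 8 windows and in 7.81% and 1.63% of all windows, and their absence says nothing of sites outside these windows. Stretches of Fos, Jun, Atf3, Nr4a1 and Btg2 are given below, and the matches in the Fosb and Junb windows are not shown. Each is written 5′ to 3′ along the gene's strand, with the matched letters in capitals, and CGTCA is the core read on the other strand.
Fos, chr12:85473794-85473858, plus strand: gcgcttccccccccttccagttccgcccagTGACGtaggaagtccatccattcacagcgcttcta
Jun, chr4:95052230-95052297, minus strand: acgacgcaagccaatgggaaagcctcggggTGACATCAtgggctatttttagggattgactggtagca
Atf3, chr1:191183334-191183370, minus strand: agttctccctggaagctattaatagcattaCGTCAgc
Nr4a1, chr15:101266776-101266840, plus strand: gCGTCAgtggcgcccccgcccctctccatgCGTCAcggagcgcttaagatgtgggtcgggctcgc
Btg2, chr1:134079284-134079348, minus strand: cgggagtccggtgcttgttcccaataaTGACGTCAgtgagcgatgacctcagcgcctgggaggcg
The Fos match shown and the Jun match ended 62 and 38 bases before the start, and the Atf3 match ended 3 bases before it. Nr4a1 had 4 matches in its window, of which 2 are shown. A match of letters is a description and not a measured binding site.

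All levels below are log2 of the deposited intensity, averaged over the 2 arrays of a sample. Levels were compared between samples and never between probe sets. The deposited table gives no detection calls, so a low level could not be set against background. Over all probe sets the 2 arrays of a sample differed by a median of 0.15. The captures were checked against motoneuron markers: the neurofilament heavy chain gene Nefh averaged 11.56 (IML), 12.58 (LMN) and 12.20 (MMN). The acetylcholine transporter gene Slc18a3 had means of 7.18 ± 0.28, 8.73 ± 1.17 and 8.30 ± 1.01 (SD, n = 5). Isl1, a motoneuron transcription factor, had pool means of 5.74, 5.61 and 5.59, and without detection calls it cannot be said whether it was detected. The LMN sample of animal 2 stood apart with the lowest LMN level of Slc18a3, 7.12.

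In each member probe set but Fos 161716_at, more of the sum of squares lay between animals than between pools. In a limma model with pool and animal as terms, the F test between animals called 11 of the 15 probe sets at an adjusted p under 0.05 (Benjamini-Hochberg over all probe sets). That is 73.3% of the members, against 47.0% of all 12422 probe sets called by the same test. The median distance between the highest and lowest animal mean was 0.42 for the members and 0.34 for all probe sets. The median share of the sum of squares that lay between animals was 66.6% for the members and 57.6% for all, and the share between pools was 9.79% and 10.2%. The members' count therefore stands on a background of 5839 probe sets that also differed between animals. Any step of dissection or amplification that the 3 pools of an animal shared cannot be told apart from the animal itself.

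**Figure D1:**
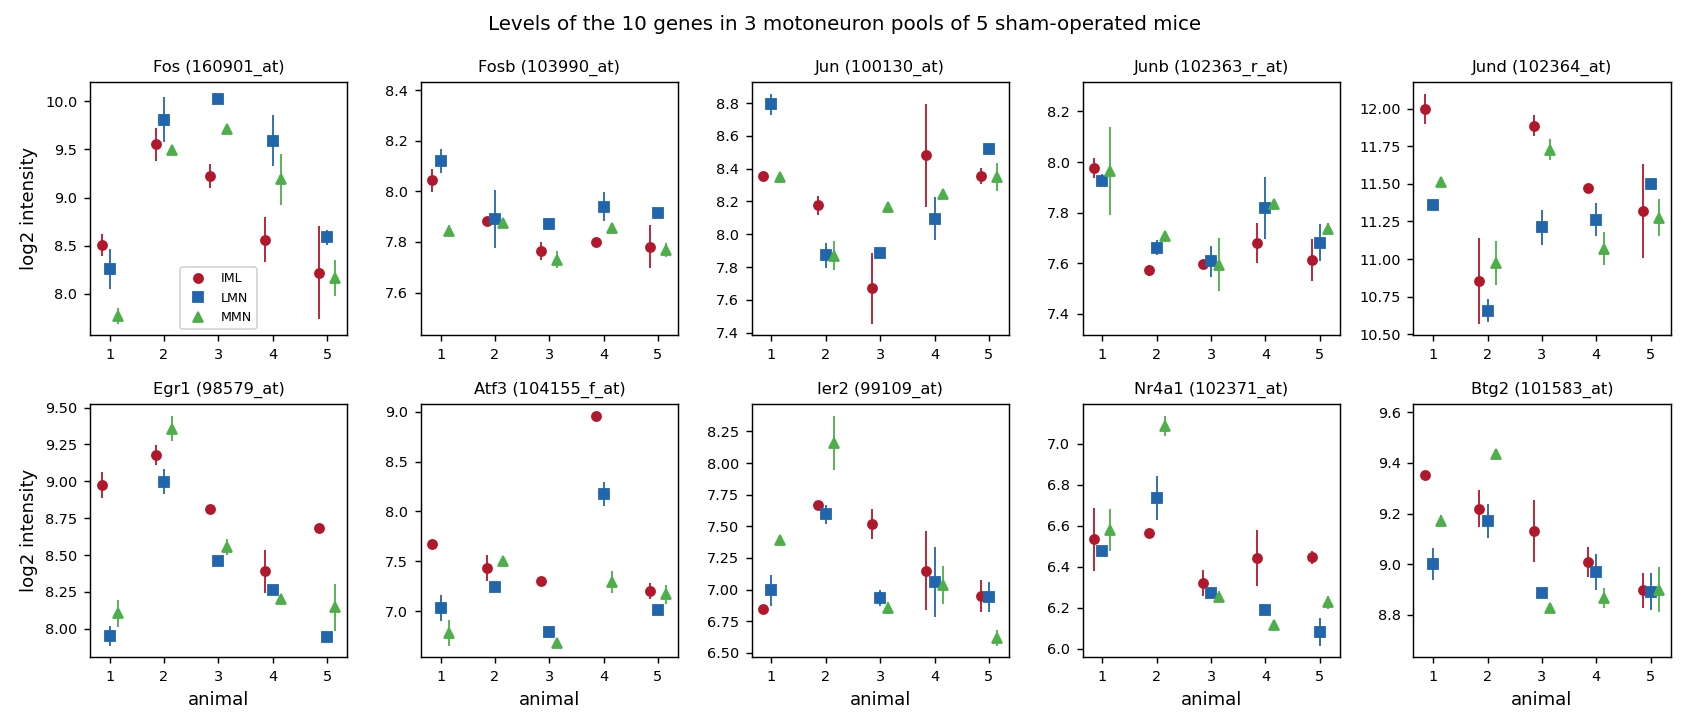
Log2 intensity (vertical axis) of the brightest probe set of each of the 10 genes by animal (horizontal axis) and pool (colour and shape), where a point is the mean of 2 arrays and the line joins those arrays. Fos reached 10.02 in LMN of animal 3 and was lowest, at 7.77, in MMN of animal 1, whereas the Atf3 panel is led by the IML sample of animal 4 at 8.95.

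Between pools, few members differed. Against the mean of LMN and MMN, 0 of 15 members were called in IML, with 5.52% of all probe sets called. In that contrast 3 members had an unadjusted limma p under 0.05 and the smallest adjusted p was 0.0596, for Egr1. Against LMN, 1 of 15 was called, Egr1, which was higher in IML, while 8.98% of all probe sets were called. In IML against MMN 0 of 15 were called in limma (0.346% of all), 2 having an unadjusted p under 0.05. In LMN against MMN 0 of 15 were called (0.0564% of all) and 4 had an unadjusted p under 0.05. The single call among 15 lies near the background share of its comparison. The comparisons of IML with LMN and with MMN share the IML samples, so they are not separate evidence of each other.

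**Figure D2:**
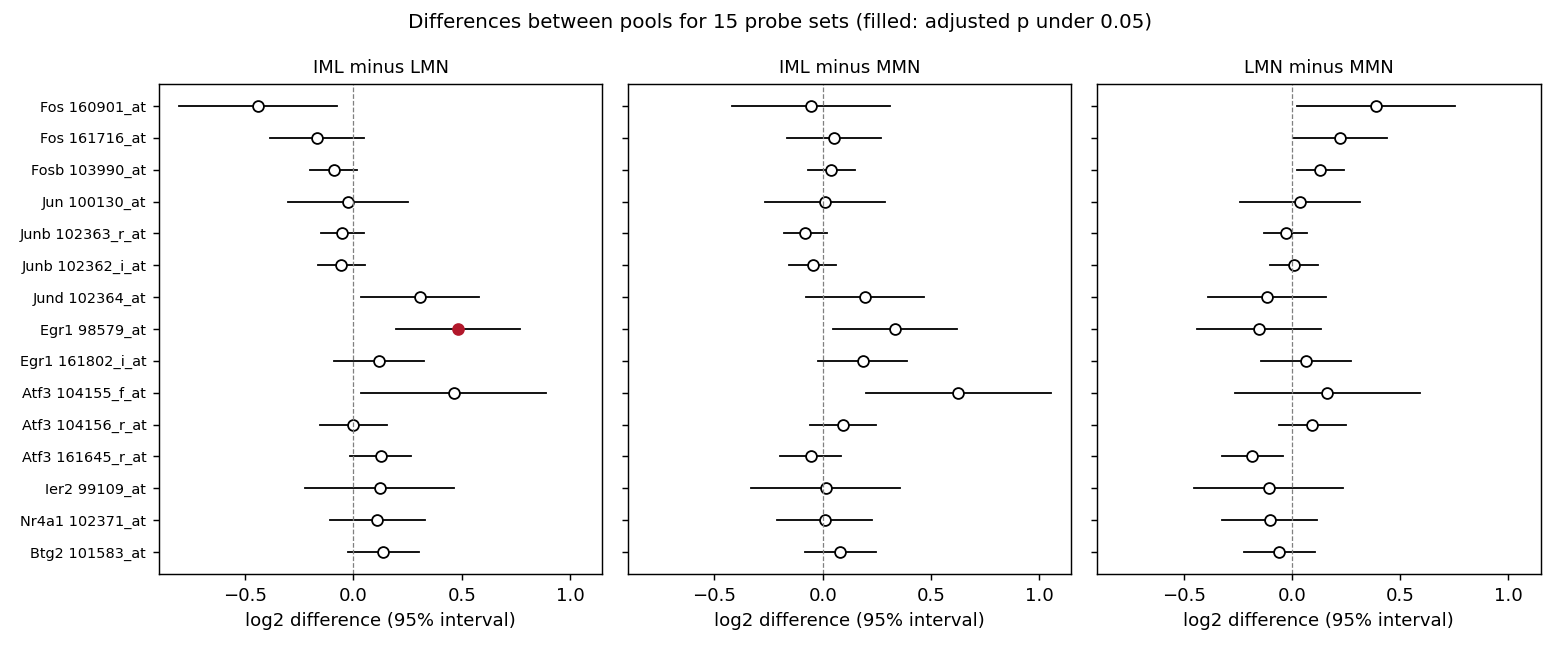
Log2 differences between pools (horizontal axis) with 95% intervals from the limma model for the 15 probe sets (rows), in 3 panels. The filled point marks the call with an adjusted p under 0.05, Egr1 in IML minus LMN at 0.48, and most other intervals cross 0.

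Fos, the prototype immediate early gene and a partner of the Jun proteins in AP-1, had the widest spread between animals of any member. Its main probe set, 160901_at, stood at 8.51, 9.55, 9.22, 8.56 and 8.22 in IML of animals 1 to 5. In LMN the levels were 8.26, 9.81, 10.02, 9.59 and 8.59. In MMN they were 7.77, 9.49, 9.72, 9.19 and 8.17. Animals 2 and 3 held the highest Fos levels in each of the 3 pools, animals 1 and 5 held the lowest 2 levels in LMN and MMN, and the pools overlapped widely. The animal means ran from 8.18 in animal 1 to 9.65 in animal 3. That range of 1.48, or 2.78-fold, exceeded the range of 99.0% of all probe sets. It compared with a standard error of 0.21 for a difference between a pair of animals, and the adjusted p between animals was 0.00195. The p stayed under 0.05 in all 13 alternative settings of the analysis, from 0.00181 to 0.0142.

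The Fos target was also measured less evenly than most. The 2 arrays of a sample differed by a mean of 0.34, more than in 97.4% of probe sets, and by 0.96 in IML of animal 5. The difference between IML and LMN was -0.44 ± 0.17 (SE, n = 5), 1.36-fold lower in IML with a 95% interval of -0.81 to -0.08. It did not pass the test in limma (adjusted p = 0.132), and Fos was lower in IML in 4 of 5 animals, animal 1 being the other. Without animal 1 the difference was -0.61 with an adjusted limma p of 0.0268, so this animal decided the call. LMN exceeded MMN by 0.39 ± 0.17 in 5 of 5 animals, which was not called (adjusted p = 0.399, limma). Both 95% intervals left out 0 (0.02 to 0.75 for LMN against MMN), but neither difference passed the test after adjustment over all probe sets.

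A second Fos probe set, 161716_at, did not follow the first. Its pool means were 5.28, 5.45 and 5.22, and its animal means lay within 0.11 of each other (adjusted p = 0.845, limma F test). Over the 15 samples its correlation with the first was 0.35, a description of samples that share animals. Fosb, a paralogue of Fos that gives rise to the long-lived deltaFosB, had pool means of 7.85, 7.95 and 7.81 in IML, LMN and MMN. LMN exceeded MMN by 0.13 ± 0.05, a difference seen in 5 of 5 animals that was not called (adjusted p = 0.329, limma). The animals were not separated either for Fosb (adjusted p = 0.0866).

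Jun, the founding partner of Fos and a gene of the axon injury response, showed no pool difference beyond error. Its levels in animals 1 to 5 were 8.36, 8.18, 7.67, 8.48 and 8.36 in IML. In LMN they were 8.79, 7.87, 7.88, 8.10 and 8.52. In MMN they were 8.35, 7.87, 8.16, 8.24 and 8.35. The pools overlapped over nearly their whole range, and the IML minus LMN difference of -0.03 had a 95% interval of -0.30 to 0.25. The animal means spanned 0.59, with animal 1 highest at 8.50 and animal 3 lowest at 7.91 (adjusted p = 0.0343, limma F test). That order is not the order of Fos, which was highest in animal 3 and lowest in animal 1. The call for Jun was kept in 3 of 13 alternatives, with an adjusted p of up to 0.133.

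Junb, a Jun relative that often opposes Jun in AP-1, was highest in animal 1 by its main probe set, 102363_r_at. Animal 1 was also the highest for 39.4%, 42.7% and 38.1% of all 8251 genes in IML, LMN and MMN, so a peak there is common. IML of animal 1 stood at 7.98 against 7.57 to 7.68 in the other animals. The animal means spanned 0.36 and took 87.9% of the sum of squares, with an adjusted p of 0.00619 in the limma F test. Without animal 1 the adjusted p was 0.175. The other Junb probe set, 102362_i_at, spanned 0.15 between animals (adjusted p = 0.188), and its correlation with the first over the 15 samples was 0.62. Between pools the largest difference of 102363_r_at was -0.08 ± 0.04, for IML against MMN.

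Jund, the Jun family member that resting cells express steadily, was lowest in animal 2 in each pool. Its levels were 12.00, 10.85, 11.89, 11.47 and 11.32 in IML of animals 1 to 5. LMN levels were 11.36, 10.66, 11.21, 11.26 and 11.50, and MMN levels were 11.51, 10.97, 11.73, 11.07 and 11.27. The pools overlapped, and animal means spanned 0.80, or 1.74-fold (adjusted p = 0.0127, limma F test). Without animal 2 the adjusted p was 0.215. IML exceeded LMN by 0.31 ± 0.12, which did not pass the limma test (adjusted p = 0.159).

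Egr1, a zinc finger factor induced by calcium and MAP kinase signals, gave the single member call between pools. The levels of probe set 98579_at in IML were 8.97, 9.18, 8.81, 8.39 and 8.68 in animals 1 to 5. In LMN they were 7.95, 9.00, 8.46, 8.26 and 7.94. In MMN they were 8.11, 9.36, 8.56, 8.20 and 8.15. Animal 2 was the highest in every pool, and the IML and LMN ranges overlapped although IML was above LMN in 5 of 5 animals. The differences by animal were 1.02, 0.18, 0.35, 0.13 and 0.74, so animals 1 and 5 carried most of the mean. That mean, 0.48 ± 0.13 (SE, n = 5), or 1.40-fold, had a 95% interval of 0.20 to 0.77 and an adjusted limma p of 0.0409. IML exceeded the mean of LMN and MMN by 0.41 ± 0.11 in 5 of 5 animals (adjusted p = 0.0596, limma) and MMN alone by 0.33 ± 0.13 in 4 of 5 (adjusted p = 0.326).

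The Egr1 call was a narrow one. It was kept in 5 of 15 alternatives. Over all 15 the difference ran from 0.35 to 0.57 and the adjusted limma p from 0.0348 to 0.934. It ended when animal 1, 3, 4 or 5 was left out (adjusted p = 0.105, 0.113, 0.0538 and 0.176, limma) and when the LMN sample of animal 2 was left out (adjusted p = 0.0773). It also ended without the animal as a replicate block (adjusted p = 0.461). Without animal 2, the difference of Egr1 in IML from the mean of LMN and MMN was 0.51 and passed the limma test (adjusted p = 0.0360). In that setting the difference from MMN alone was 0.46 and did not pass (adjusted p = 0.168, limma). The second Egr1 probe set, 161802_i_at, was not called (0.12 ± 0.09 for IML against LMN), and its correlation with the first over the 15 samples was -0.02.

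Markers of several other cell types differed in the same comparison, IML against LMN, in which 8.98% of all probe sets were called. Of 12 meningeal and fibroblast markers, 10 were higher in IML than in LMN, the mean of the list running from 9.16 to 10.5 over the IML samples, 7.77 to 9.42 in LMN and 8.41 to 10.3 in MMN. Of 15 microglia and macrophage markers 8 were higher, with list means of 7.20 to 7.55 in IML, 6.85 to 6.94 in LMN and 6.87 to 7.24 in MMN. Of 14 endothelial and mural markers 3 were higher, with list means of 6.99 to 7.82, 6.69 to 7.28 and 6.98 to 7.94. Astrocyte markers gave 3 of 11 higher, and interneuron markers 1 higher and 1 lower of 7. Oligodendrocyte markers gave 1 of 9 (11.1%), near the share of all probe sets. Red blood cell genes gave 0 of 3 (1 with an unadjusted limma p under 0.05). Of 7 measured motoneuron markers 5 were lower in IML than in LMN. No intensity in the table was 0, the lowest being 6.46 on the linear scale. With the list mean of the fibroblast and meningeal genes entered as a covariate, the Egr1 difference was 0.46 ± 0.31 with an adjusted limma p of 0.934, its standard error being 2.38 times as large. The part of these cells in the Egr1 difference was not tested beyond that.

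Between animals, Egr1 98579_at had its highest mean in the same animal as Ier2, Nr4a1 and Btg2. Its animal means ran from 8.26 in animal 5 to 9.18 in animal 2, a range of 0.92 or 1.89-fold (adjusted p = 0.00765, limma F test). Ier2, a short-lived nuclear protein induced by growth factors, shared animal 2 as its highest, with 7.67 in IML, 7.59 in LMN and 8.16 in MMN. The other 4 animals had Ier2 levels of 6.84 to 7.52 in IML, 6.93 to 7.06 in LMN and 6.62 to 7.39 in MMN, so animal 2 lay above all of them. The range of its animal means was 0.97, or 1.96-fold (adjusted p = 0.0206, limma F test). The second Egr1 probe set, 161802_i_at, did not share this peak. Its animal mean was lowest in animal 2, at 6.87, and highest in animal 1, at 7.13 (adjusted p = 0.397, limma F test). It was called between animals in 0 of 13 alternatives.

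Nr4a1, the nuclear receptor also known as Nur77, stood at 6.56, 6.73 and 7.09 in IML, LMN and MMN of animal 2. In the other animals it ran from 6.32 to 6.53, 6.08 to 6.48 and 6.12 to 6.58, so animal 2 was again the highest in each pool, by the least in IML. Its animal means spanned 0.55 (adjusted p = 0.0188, limma F test). Btg2, an antiproliferative cofactor of mRNA deadenylation, was highest in animal 2 in LMN (9.17) and MMN (9.44) but in animal 1 in IML (9.35 against 9.22). Its animal means spanned 0.38 (adjusted p = 0.0253). Without animal 2 the adjusted p rose to 0.226 for Egr1, 0.554 for Ier2, 0.0794 for Nr4a1 and 0.0964 for Btg2. The call for Btg2 was kept in 6 of 13 alternatives and was also lost without animal 1 (adjusted p = 0.0502) or animal 5 (0.0550), whereas those for Egr1, Ier2 and Nr4a1 were each kept in 11 of 13. Without animal 2, 4 of 15 members (26.7%) and 22.0% of all probe sets were called between animals. Without only its LMN sample the counts were 8 of 15 members and 32.3% of all, and the calls that ended were those of Jun, Nr4a1 and Btg2 (adjusted p = 0.0721, 0.0616 and 0.0553, limma F test).

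Counted by the brightest probe set of each gene, 6 of the 10 genes had their highest MMN level in animal 2, a share of 60% against 15.6% of 8251 genes. In IML and LMN the count was 4 of 10 in each, against 18.0% and 22.2% of all genes. By animal mean, animal 2 was not the highest for Fos, Fosb, Jun, Junb, Jund or Atf3, and for Fos it stood at 9.62 against 9.65 in animal 3. Marker lists of other cells also peaked in animal 2. The oligodendrocyte list was highest there in IML, LMN and MMN (9.89, 9.56 and 9.61), and so was the astrocyte list (10.5, 10.1 and 10.3). The endothelial and mural list (7.28 and 7.94) and the meningeal and fibroblast list (9.42 and 10.3) were highest there in LMN and MMN, and the microglia list in MMN (7.24). The motoneuron list had its lowest LMN mean in animal 2, at 8.71, but not its lowest mean in the other pools. In IML it was 8.61 in animal 2 and lowest in animal 1 (8.39), and in MMN 8.82 and lowest in animal 3 (8.79). The part of these cells in the levels of animal 2 was not tested beyond the meningeal and fibroblast covariate. With that covariate 4 of 15 members (26.7%) and 17.8% of all probe sets were called between animals. Among the 4 were Fos and, at an adjusted p of 0.0357, Ier2 (limma F test). Egr1 98579_at and Btg2 were no longer called with it (adjusted p = 0.0917 and 0.0769, limma F test).

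**Figure D3:**
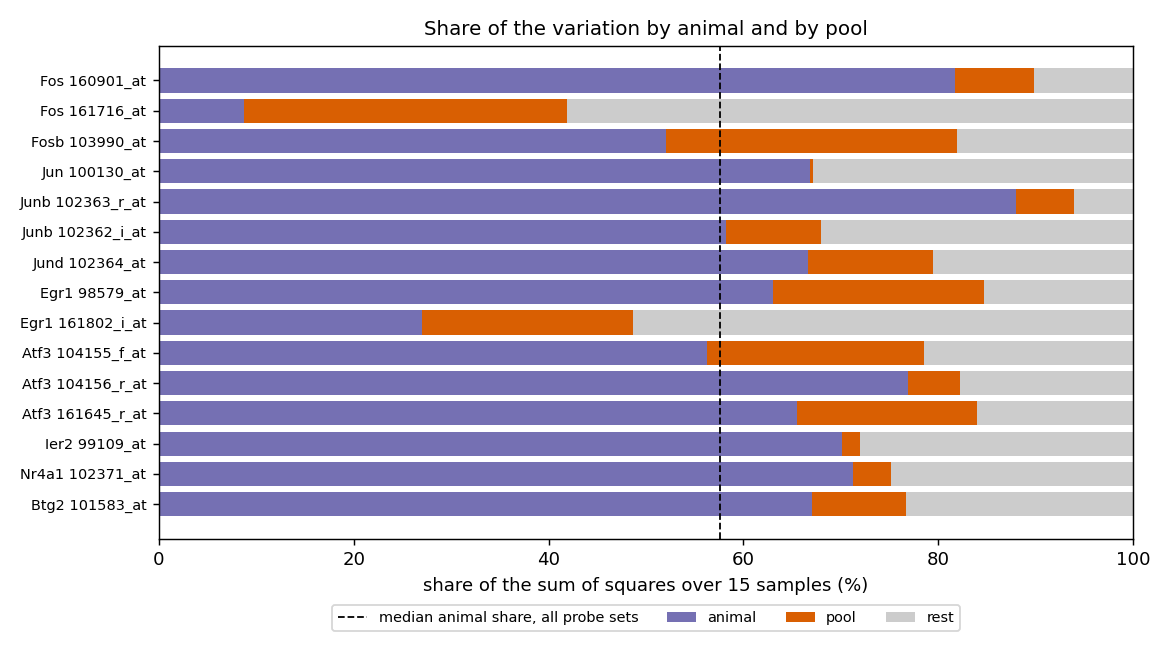
Share of the sum of squares over 15 samples (horizontal axis, %) that lay between animals, between pools and in the rest, for the 15 probe sets (rows), with the dashed line at the median animal share of all probe sets, 57.6%. Junb 102363_r_at had the largest animal share at 87.9%, whereas Fos 161716_at had the smallest at 8.69%.

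Pool differences of Ier2, Nr4a1 and Btg2 were small beside their errors. IML minus LMN was 0.12 ± 0.16 for Ier2 (95% interval -0.22 to 0.47), 0.11 ± 0.10 for Nr4a1 (-0.11 to 0.33) and 0.14 ± 0.07 for Btg2 (-0.03 to 0.30). Btg2 was higher in IML than in LMN in 5 of 5 animals without passing the test (adjusted p = 0.298, limma). No pool difference of these genes passed the test.

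Atf3, the stress-induced bZIP factor used as a marker of axon injury, was led by a single animal. Its main probe set, 104155_f_at, stood at 7.68, 7.43, 7.30, 8.95 and 7.20 in IML of animals 1 to 5. In LMN the levels were 7.03, 7.24, 6.79, 8.18 and 7.01, and in MMN they were 6.78, 7.50, 6.68, 7.29 and 7.17. Animal 4 was far above the others in IML and LMN and inside their range in MMN, where animal 2 was the highest. Both arrays of the IML sample of animal 4 gave the high level, at 8.95 and 8.96. The animal mean was 8.14 in animal 4 and 6.93 in animal 3, the lowest, a range of 1.22 or 2.32-fold (adjusted p = 0.0178, limma F test). Without animal 4 the adjusted p was 0.148.

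IML exceeded the mean of the somatic pools in Atf3 by 0.55 ± 0.17 in 5 of 5 animals, which did not pass the test (adjusted p = 0.0868, limma). Against LMN the difference was 0.46 ± 0.20 (adjusted p = 0.178) and against MMN 0.63 ± 0.20 (adjusted p = 0.243, limma). Without animal 4 the difference from MMN was 0.37 ± 0.14 (adjusted p = 0.369, limma), and with the meningeal and fibroblast covariate that from LMN was 0.26 ± 0.46. The groups overlapped in each case. The other Atf3 probe sets did not show the peak in the same way. 104156_r_at had animals 1 and 4 highest, at means of 7.11 and 7.10, with a range of 0.41 (adjusted p = 0.0117, limma F test), and its correlation with 104155_f_at was 0.52 over the 15 samples. 161645_r_at was highest in animal 1 with a range of 0.42 (adjusted p = 0.0156), and its correlation was -0.17. Without animal 1 the adjusted p of 161645_r_at was 0.670. A probe set with the suffix _f_at, as the main Atf3 probe set has, can bind related transcripts. Which of the Atf3 probe sets follows Atf3 mRNA is uncertain.

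**Figure D4:**
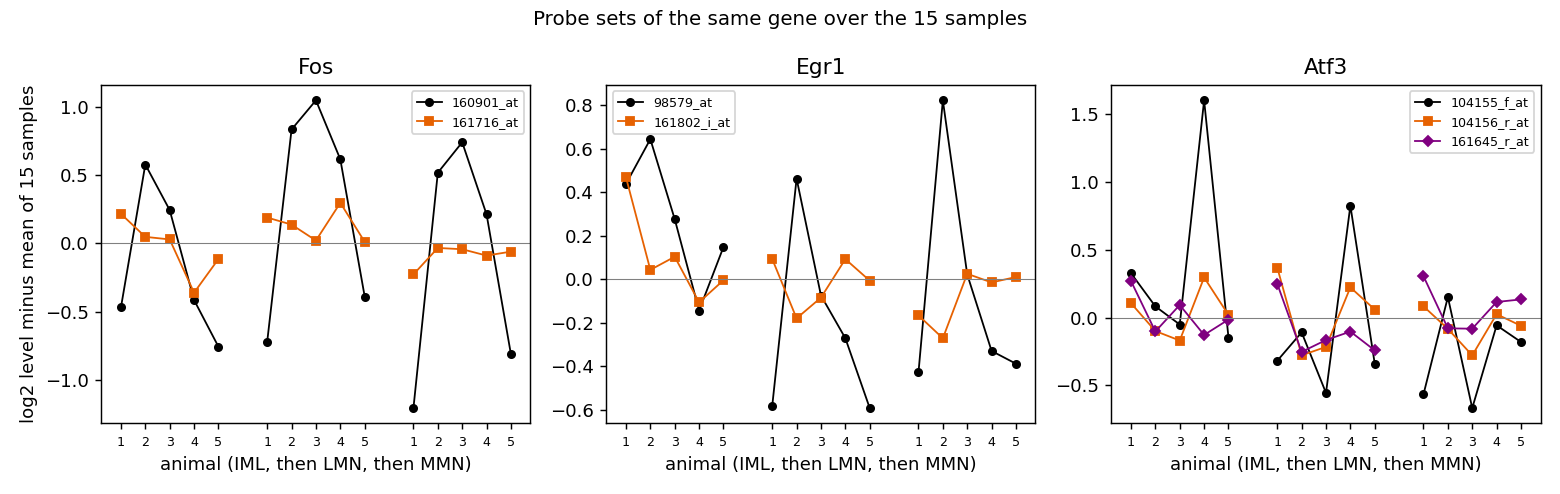
Log2 level of each probe set less its own mean over the 15 samples (vertical axis), by animal within IML, then LMN, then MMN (horizontal axis), for the genes Fos, Egr1 and Atf3. The probe sets of a gene part company: the correlations with the brightest one were 0.35 for Fos, -0.02 for Egr1, and 0.52 and -0.17 for Atf3.

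A pair of genes that accompany Atf3 after axon injury had the same highest animal, while most genes of the wider list did not. Sprr1a, a cornified envelope protein that injured neurons make, stood at 8.16 in IML and 8.16 in LMN of animal 4, against 7.15 to 7.42 and 7.18 to 7.44 in the others. In MMN it was 7.62 in animal 4 and 7.00 to 7.42 in the others. Sprr1a thus had its highest level in animal 4 in every pool, with a range of animal means of 0.83 (adjusted p = 0.00492, limma F test). Adcyap1, which encodes the neuropeptide PACAP, stood at 10.40 in IML, 9.11 in LMN and 8.61 in MMN of animal 4. In the other animals it ran from 8.63 to 9.84, 6.81 to 7.21 and 6.95 to 8.07, so animal 4 was again the highest throughout. Its animal means spanned 1.82 (adjusted p = 0.00507). Sprr1a was taken for its likeness to Atf3 and Adcyap1 from the injury list after their values were seen. Of the 34 measured injury genes, animal 4 was the highest for 11 in IML, 4 in LMN and 4 in MMN. Those shares, 32.4%, 11.8% and 11.8%, compare with 19.1%, 12.1% and 10.7% of all genes. The mean of the list, which holds Sprr1a and Adcyap1, was highest in animal 4 in IML (8.19, against 7.89 to 7.99). It was also highest there in LMN (7.94, against 7.73 to 7.93). In MMN the list mean was highest in animal 5, at 7.91, with 7.87 in animal 4.

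**Figure D5:**
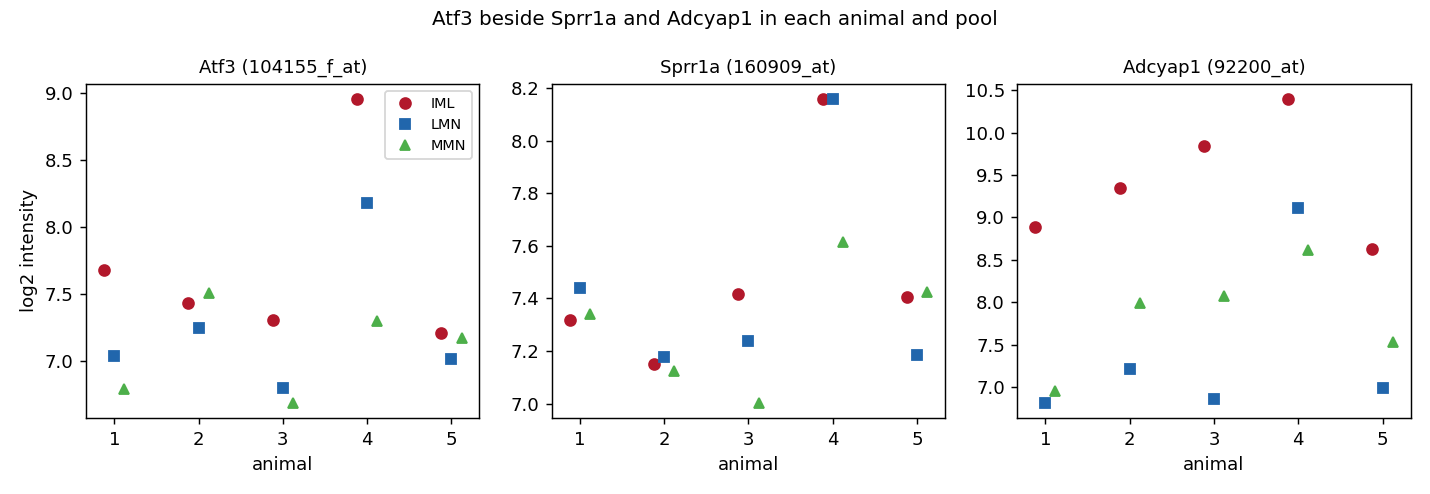
Log2 intensity (vertical axis) of Atf3 104155_f_at, Sprr1a and Adcyap1 by animal (horizontal axis) and pool (colour and shape). Animal 4 is the highest in all pools for Sprr1a and Adcyap1, and for Atf3 in IML (8.95) and LMN (8.18) but not in MMN (7.29).

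Related genes place the members in their pathway. Among 55 other immediate early genes, 46 were measured, and 7 of them (15.2%, against 5.52% of all probe sets) were higher in IML than in the somatic pools, 0 were lower and 39 were not called. The list median was 0.07 beside -0.01 over all genes. The 4 with the smallest p were Klf6, a zinc finger factor, at 0.55 ± 0.09, Ccn2, a matrix protein also called CTGF, at 0.77 ± 0.15, the mRNA decay factor Zfp36l1 at 0.66 ± 0.13 and the helix-loop-helix inhibitor Id4 at 0.36 ± 0.07. Their adjusted limma p ran from 0.00831 to 0.0203, and each was higher in IML in 5 of 5 animals.

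Against LMN, 9 of the 46 were higher and 1 was lower in IML (21.7% called, against 8.98% of all). Ccn2 was higher by 1.15 ± 0.17, Zfp36l1 by 0.99 ± 0.15 and Ier3, the gene called lower, had a difference of -0.38 ± 0.10 (adjusted p = 0.0400, limma). In IML against MMN 0 were called in limma, with 12 at an unadjusted p under 0.05, and in LMN against MMN 0, with 10. Between animals 27 of 46 (58.7%) were called, against 47.0% of all probe sets, and the median range of animal means was 0.47 beside 0.36 over all genes. The kinase gene Sgk1 spanned 2.09 between animals, Ccn2 2.17, the ERK phosphatase gene Dusp6 1.32 and Rgs2, a regulator of G protein signalling, 1.24, with adjusted limma p of 0.000398 to 0.00423. Most of the fibroblast and meningeal markers given above were also called higher in IML against the somatic pools and against LMN. With their list mean as a covariate, 0 of the 686 calls against the somatic pools were left in limma, those of immediate early genes included. Over all probe sets 603 had an unadjusted limma p under 0.05. The covariate differed between pools, and the median standard error of this contrast was 2.05 times that of the main fit. The loss of calls therefore cannot separate fibroblast and meningeal cells from the pool, and their part in these calls was not tested.

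Of 42 genes that carry signals to the immediate early genes, 28 were measured. Against the somatic pools 0 were higher in IML and 1 was lower (3.57%, against 5.52% of all probe sets), the stress kinase gene Mapk12 (-0.28 ± 0.07, adjusted p = 0.0378, limma). Against LMN the GTPase gene Nras (0.37 ± 0.10) and the RAF kinase gene Araf (0.29 ± 0.07) were higher, and Mapk9, a JNK gene whose product phosphorylates Jun, was lower (-0.35 ± 0.08), which made 10.7% called against 8.98% of all. In IML against MMN 0 were called in limma, with 3 at an unadjusted p under 0.05, and in LMN against MMN 0, with 2. Between animals 16 of 28 (57.1%) were called, against 47.0% of all. The list medians, -0.01 against the somatic pools and -0.02 against LMN, lay at the medians of all genes, -0.01 and -0.02.

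Other bZIP factors, the possible partners of Fos, Jun and Atf3, gave 22 measured of 27. Nfe2l2, the oxidative stress factor NRF2, was higher in IML than in the somatic pools by 0.68 ± 0.14, and Atf5 by 0.31 ± 0.08. Atf6, a sensor of unfolded protein, had a difference of -0.46 ± 0.10 and the small Maf gene Mafg of -0.22 ± 0.04, and both were lower. All 4 were called in limma at adjusted p of 0.0179 to 0.0398. They made 18.2% of the list, against 5.52% of all probe sets. The same 4 genes were called against LMN in the same directions, where 8.98% of all were called. In IML against MMN 0 of 22 were called in limma, with 8 at an unadjusted p under 0.05, and in LMN against MMN 0, with 3. Between animals 11 of 22 (50%) were called, against 47.0% of all, with the CREB relative Atf2 spanning 1.09.

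Of 39 axon injury and regeneration genes, 34 were measured, 7 of them higher and 1 lower in IML than in the somatic pools (23.5% called, against 5.52% of all probe sets). The higher ones with the smallest p were Adcyap1 (1.81 ± 0.19), Klf6 (0.55 ± 0.09), the growth cone protein gene Gap43 (1.32 ± 0.23) and the interleukin 6 receptor subunit gene Il6st (0.69 ± 0.13). Ret, the receptor for glial-derived neurotrophic factors, was among the motoneuron markers as well and was lower by limma at -0.34 ± 0.07. The list median was -0.02, beside -0.01 over all genes. Against LMN 6 were higher and 2 lower (23.5%, against 8.98% of all). In IML against MMN 1 was higher, Adcyap1 (1.59 ± 0.22, adjusted p = 0.0148, limma), and in LMN against MMN 0 were called, with 5 at an unadjusted p under 0.05. Between animals 15 of 34 (44.1%) were called, against 47.0% of all, and the signal transducer gene Smad1 spanned 0.98.

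The genes most like 4 of the members over the 15 samples were found by Pearson correlation among probe sets at or above the median level, as a description of samples that share animals and arrays. Fos was followed by the pterin reductase gene Qdpr (0.86), Fahd1 (0.86), Pole3 (0.81), Acsl5 (0.81) and H2ax (0.80). Jun was followed by Tmem109 (0.84), Pam16 (0.83), Tbcb (0.82), Cbr3 (0.80) and the metallothionein gene Mt3 (0.79). Egr1 had higher correlations, with the junction protein gene F11r (0.93), the scaffold gene Dlg1 (0.93), Serpinb9 (0.92), the zinc transporter gene Slc39a1 (0.92) and the ephrin gene Efnb2 (0.90). Atf3 was followed by Septin11 (0.82), Slc66a2 (0.80), the phosphatase gene Ptprr (0.80), Sprr1a (0.79) and C77080 (0.79). No other member was among these genes. Nr4a1, with a mean of 6.42 under the median level of 7.10, was outside the search.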

How the data were processed

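The authors deposited linear intensity values for 12488 probe sets on 30 arrays, which per the labels' protocols they normalized with R-pack and returned from a log scale. The method of R-pack is not given in the sources used here. Without the 66 control probe sets, 12422 were tested, and symbols came from the platform annotation, updated by gene identifier. Intensities were taken to log2, and averaging the 2 arrays per animal and pool gave 15 samples. Array medians ran from 131.6 to 145.7, and the number of animals limits the precision. limma 3.58.1 (lmFit, eBayes) was run in R 4.3.3 with pool and animal as fixed terms over all samples. The contrasts (two-sided) and the F test of the 4 animal terms were adjusted by Benjamini-Hochberg over all of these, with a threshold of 0.05, and were tested on simulated data. The labels state that each animal gave all 3 pools: samples of the same animal deviated together in 15 of 15 pairs of pools (correlations of 0.29 to 0.75).

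All member probe sets are described. From each related list at most 4 called genes per contrast with the smallest p are named, or values where none was called, and 5 genes by likeness for Fos, Jun, Egr1 and Atf3. A gene of a related or marker list was represented by its brightest probe set, whereas the shares of all probe sets count every probe set, dim ones included. With the dimmest 25% left out, those shares were 7.29% for IML against the somatic pools and 11.6% against LMN. Between animals the share was then 51.8%. The shares of a list and of all probe sets therefore rest on unlike bases. The members and lists were chosen with earlier results of these data known. The alternatives left out or randomised the block, used 1 array of each pair, rescaled the arrays, dropped dim probe sets, raised intensities under 32 to that floor, added a covariate of meningeal and fibroblast markers, and left out each animal. Leaving out the LMN sample of animal 2 was chosen after seeing the data. Sequences and starts are from RefSeq tables of GRCm38.p6.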

Additional observations from a re-analysis of the deposited data

Results flagged for a closer look

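In 5 of 45 groups of 5 animals (a member probe set in a pool), the highest or lowest animal lay farther from the rest than Dixon's 95% value allows, where chance gives about 5% of groups. The same share over all probe sets was not computed, and the 45 groups share the same 5 animals. The count therefore cannot be read as an excess among the members. In IML, Atf3 104155_f_at stood at 8.95 in animal 4, against 7.20 to 7.68 in the other animals. In LMN, Ier2 stood at 7.59 in animal 2, against 6.93 to 7.06. Fosb stood at 8.12 in LMN of animal 1, against 7.87 to 7.94. Junb 102363_r_at stood at 7.98 in IML of animal 1, against 7.57 to 7.68. Fos 161716_at was low in MMN of animal 1, at 5.09 against 5.23 to 5.28.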

How the results depend on the processing

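The 1 member called in IML against LMN became 0 with no replicate block, with a random replicate block, with technical set 2 alone, with a floor of 32, with the meningeal and fibroblast covariate, and without the LMN sample of animal 2. Leaving out 1 animal at a time gave 0 to 1, and the 1 call without animal 1 was Fos in place of Egr1. Against the somatic pools the count of 0 became 0 to 1 in the same way. The 11 members called between animals became 7 with technical set 1 alone, 6 with technical set 2 alone and 4 with the covariate, and ran from 4 to 10 with 1 animal left out. The counts for IML against MMN and LMN against MMN were 0 in every alternative run. Of 896 member differences under an alternative, 820 kept their direction and their side of the threshold, 10 lost a call, 2 gained one, and 64 that were not called changed sign. Over all probe sets, the counts with the covariate went from 686 to 0 against the somatic pools, 1116 to 0 against LMN, 43 to 0 against MMN and 5839 to 2205 between animals. With 1 animal left out they ran from 164 to 650, 371 to 935, 0 to 42 and 2554 to 5653 in the same order. In LMN against MMN the 7 calls ran from 0 to 10 over all alternatives. Without the LMN sample of animal 2, 21 were called against MMN. With no replicate block they were 46, 135 and 4, with technical set 1 alone 304, 601 and 9, and with the floor 282, 717 and 10, and technical set 2 alone gave 713 against LMN. Between animals, technical sets 1 and 2 alone gave 2847 and 2043. The random replicate block gave 67 against MMN. The removal of a member's call by a setting has causes that were not tested. Errors were often larger in models with fewer samples or a covariate, but not always. Without animal 1 the standard error of Egr1 98579_at in IML against LMN was 0.857 times that of the main fit. The difference there was 0.35, against 0.48 in the main fit.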
